A study of Mus musculus with 19 samples.

Results

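Retinoid metabolism and signalling were followed through 9 genes in NIH3T3 cells leaving quiescence. The genes are Stra6, Aldh1a1, Aldh1a3, Crabp1, Crabp2, Rara, Rarb, Rarg and Cyp26b1, and 12 of the 45101 probe sets on the Affymetrix mouse array carried one of these symbols alone. They were taken by symbol as a set of related functions, with results of these arrays already known: Aldh1a1 and Cyp26b1 were chosen by their measured signals, because both had fallen after FGF, Aldh1a1 depending on MEK and Cyp26b1 not. Their values are therefore given below as a description, with no test. Tests are given for the other members only.

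NIH3T3 is an established line of mouse embryonic fibroblasts. In every group the cells had been grown in 10% calf serum and then held for 48 h in 0.1% serum. The quiescent group was taken at that point (3 arrays: 1a and 1b from experiment 1, and 1 from experiment 2). Other cells received basic fibroblast growth factor (bFGF, here FGF) at 50 ng/ml for 1 h (1 array) or for 4, 7 or 12 h (2 arrays each, 1 from each experiment). Parallel cells also received 20 µM U0126, which blocks MEK, the kinase upstream of ERK. U0126 was added 30 min before FGF and the cells taken at 1 h (1 array) or at 4, 7 or 12 h (2 arrays each), or it was added 1 h after FGF and the cells taken at 7 h (1 array), or 7 h after FGF and taken at 12 h (1 array). The 19 arrays thus form 11 groups, and every group of 1 array is from experiment 1. The series title poses the question of how ERK activity controls expression over time as cells pass from rest to DNA synthesis. The labels do not say that the 2 experiments used separate cultures, so p-values measure the spread between these samples, which may be technical. No cells were left without FGF past 0 h, so in each comparison with quiescent cells FGF and the time since medium was changed or handled cannot be told apart. No group received U0126 without FGF, so in the U0126 comparisons a lost FGF response and an effect of the inhibitor itself cannot be told apart.

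Retinoic acid is made from vitamin A in steps. Stra6 takes up retinol, retinol dehydrogenases such as Rdh10 oxidise it to retinal, and Dhrs3 reduces retinal back to retinol. Enzymes such as Aldh1a1 and Aldh1a3 turn retinal irreversibly into retinoic acid. Crabp1 and Crabp2 bind retinoic acid in the cytoplasm, the receptors Rara, Rarb and Rarg bind it in the nucleus together with Rxr partners, and the Cyp26 enzymes break it down. In the growing axis of the embryo, FGF and retinoic acid signalling are known for opposing each other.

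Signals were scaled by the authors and are linear. A signal cannot be compared between probe sets, so each probe set is read against itself across arrays and against the 40th percentile of its array, which lay between 35.3 and 56.5. Median signals of the arrays ranged from 60.1 to 88.3. Of 12 fibroblast markers, 11 had a median signal above that percentile. Of 5 adipocyte markers with a probe set none did, of 6 endothelial markers only Kdr did, and 5 of 8 epithelial and 5 of 8 macrophage markers did. The treatments could be read in 9 genes of the ERK pathway and the cell cycle: 5, 7 and 7 of them rose with FGF at 4, 7 and 12 h, none fell, and 5, 6 and 7 were lower with U0126. Dusp6, the phosphatase induced by ERK, read 907, 1263 and 1560 in the quiescent arrays, 6720 to 9314 with FGF at 4 to 12 h, and 1292 to 1630 with FGF and U0126 from the start.

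For 7 of the 9 members RefSeq gives promoters in the GRCm38.p6 build, 15 in all. The sequences shown here are the 250 bases before the start, for the 2 genes whose signal fell and for Rarb, whose promoter is the textbook example of a retinoic acid response element. They read 5′ to 3′ along the gene, with motif matches in capitals. Aldh1a1 has 2 listed starts 109385 bases apart on the plus strand, with the windows chr19:20492333-20492582 and chr19:20601718-20601967. The Cyp26b1 window is chr6:84593811-84594060 and the Rarb window chr14:16575477-16575726, both on the minus strand.
Aldh1a1 upstream start: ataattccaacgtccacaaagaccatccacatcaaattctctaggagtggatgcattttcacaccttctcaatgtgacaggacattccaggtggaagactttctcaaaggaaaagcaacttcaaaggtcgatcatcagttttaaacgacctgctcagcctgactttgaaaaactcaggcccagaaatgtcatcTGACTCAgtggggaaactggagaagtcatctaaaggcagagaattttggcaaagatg
Aldh1a1 downstream start: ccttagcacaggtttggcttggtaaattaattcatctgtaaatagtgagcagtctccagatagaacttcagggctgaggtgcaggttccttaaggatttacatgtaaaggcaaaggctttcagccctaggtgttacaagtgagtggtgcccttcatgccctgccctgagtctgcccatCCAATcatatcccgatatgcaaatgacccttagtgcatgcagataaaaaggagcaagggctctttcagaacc
Cyp26b1: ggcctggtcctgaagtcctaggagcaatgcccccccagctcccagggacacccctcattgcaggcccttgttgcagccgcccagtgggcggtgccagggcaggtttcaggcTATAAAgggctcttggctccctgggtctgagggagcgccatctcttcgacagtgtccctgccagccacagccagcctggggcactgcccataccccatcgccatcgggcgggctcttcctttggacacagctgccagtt
Rarb: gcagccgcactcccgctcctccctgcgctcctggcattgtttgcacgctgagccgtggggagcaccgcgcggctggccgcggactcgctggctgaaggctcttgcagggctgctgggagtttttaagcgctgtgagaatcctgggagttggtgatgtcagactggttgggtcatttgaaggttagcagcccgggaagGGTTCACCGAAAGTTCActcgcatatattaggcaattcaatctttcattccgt
Both strands of all 32851 promoters of this length were searched for the TATA box TATAAA, and for the CCAAT box by its name. The AP-1 letters TGANTCA were searched for as well. The receptor half-site was searched for as AGGTCA, and in a variant form as AGTTCA. The FOXO letters were TGTTTAC. The search also took in direct repeats of a receptor half-site with 5, 2 or 1 bases between. The motifs were chosen with the sequences in view. TGANTCA was found 57 bases before the upstream Aldh1a1 start and in 6.75% of all promoters, and CCAAT 72 bases before the downstream start and in 33.8%. Cyp26b1 held TATAAA 139 bases before its start, as did 12.4% of promoters. Rarb held the direct repeat with 5 bases between, 53 bases before its start, which was found in 0.0883% of promoters, and this match overlaps 1 to AGTTCA (11.8% of promoters). AGGTCA occurred in 14%, TGTTTAC in 3.17%, and the repeats with 2 and 1 bases between in 0.174% and 0.164%, and these 4 were not found in the windows shown. A match describes letters and is not a bound site.

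Among the enzymes that make retinoic acid, Aldh1a1 (probe set 1416468_at, gene at chr19:20492583-20643463) started high. The quiescent arrays read 1096 and 400 in experiment 1 and 275 in experiment 2. After 1 h of FGF the signal was 1170, and 1033 with U0126. At 4 h it was 293 and 221 with FGF alone, against 321 and 262 with U0126. At 7 h it was 284 and 138 with FGF alone, against 612 and 256 with U0126, and U0126 added at 1 h gave 636. At 12 h the signal had dropped to 21.5 and 14.1 with FGF alone, while it was 377 and 371 with U0126 from the start and 172 with U0126 from 7 h. Only at 12 h did the 2 arrays with FGF alone lie below all quiescent arrays and all arrays with U0126 at that time without overlap, and these were the only 2 of 19 arrays below their own 40th percentile.

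On the log2 scale the Aldh1a1 difference from quiescent cells was 1.42 ± 0.52 (SE) at 1 h, -0.72 ± 0.43 at 4 h, -1.06 ± 0.43 at 7 h and -3.83 ± 0.43 at 12 h. The 1 h array is from experiment 1, while the quiescent mean covers both experiments. Against the quiescent arrays of experiment 1 alone the 1 h difference was 0.80. The 12 h signals with FGF alone lay below the 40th percentile, so differences against them have no exact size and no fold is given. The difference between U0126 from the start and no U0126 was 0.18 ± 0.43 at 4 h, 0.95 ± 0.43 at 7 h and 3.64 ± 0.43 at 12 h. With U0126, Aldh1a1 at 12 h differed from quiescent cells by -0.19 ± 0.43. U0126 added at 7 h left a signal at 12 h that was 2.57 ± 0.52 above that with FGF alone on the log2 scale, and -0.20 ± 0.52 from the signal with FGF alone at 7 h, when the inhibitor was added. These log2 values carry an added offset of 13.6, close to the 12 h signals, so the size of the 12 h drop depends on it: with an offset of 1 it was -4.54, and with one at the 40th percentile -2.93. The quiescent arrays differed among themselves by more than the 4 h and 7 h differences: without quiescent replicate 2 these came to -1.34 and -1.67, and without quiescent replicate 1a the 4 h value was -0.36. Dropping FGF 7 h replicate 2 took the 7 h fall to -0.57, dropping quiescent replicate 2 took the 1 h value to 0.80, and the 12 h value with U0126 ran from -0.80 (without quiescent replicate 2) to 0.17 (without quiescent replicate 1a). The 7 h difference between U0126 and no U0126 ran from 0.34 to 1.56 when replicate 1 or replicate 2 with U0126 was dropped. The array with late U0126 at 12 h is from experiment 1. Against FGF alone at 7 h it gave -0.68 within that experiment (without FGF 7 h replicate 2) and 0.29 across experiments (without FGF 7 h replicate 1). The value within experiment 1 rests on 1 array of each treatment. Values from whole cultures cannot tell fewer cells with a transcript from less of it per cell.

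Cyp26b1 (1460011_at, gene at chr6:84571414-84593908), the enzyme that clears retinoic acid, followed another course. It read 1707, 1398 and 1740 in quiescent cells, 1478 after 1 h of FGF and 1529 after 1 h with U0126. At 4 h it was 252 and 337 with FGF and 264 and 423 with FGF and U0126. At 7 h it was 203 and 480 with FGF alone, 135 and 291 with U0126 from the start, and 249 with U0126 from 1 h. At 12 h it was 283 and 411 with FGF alone, 178 and 324 with U0126 from the start, and 351 with U0126 from 7 h. All arrays from 4 h on lay below all arrays at 0 and 1 h, with and without the inhibitor, and all 19 were above their 40th percentile.

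The Cyp26b1 log2 difference from quiescent cells was -0.15 ± 0.50 at 1 h, -2.44 ± 0.41 at 4 h, -2.34 ± 0.41 at 7 h and -2.22 ± 0.41 at 12 h. By a separate measure, the mean linear signals were 5.59-, 4.82- and 4.75-fold lower at the last 3 times. With U0126 the log2 differences from quiescent cells were -2.25, -2.96 and -2.70 (each ± 0.41) at 4, 7 and 12 h. The difference between U0126 and no U0126 was 0.19 ± 0.41 at 4 h, -0.62 ± 0.41 at 7 h and -0.48 ± 0.41 at 12 h. The comparisons with and without U0126 share the quiescent arrays. Experiment 2 read higher than experiment 1 in every group of 2 arrays from 4 h on, and leaving out 1 array moved the 7 h difference to -2.93 when FGF 7 h replicate 2 was dropped and to -1.75 when replicate 1 was. The same arrays took the 7 h difference between U0126 and no U0126 to -0.03 and to -1.21, and at 4 h that difference turned to -0.14 without the U0126 replicate 2. Across the 11 group means, the log2 signals of Aldh1a1 and Cyp26b1 had a Pearson correlation of 0.467. These points share arrays and scaling, and the value is a description.

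**Figure D1:**
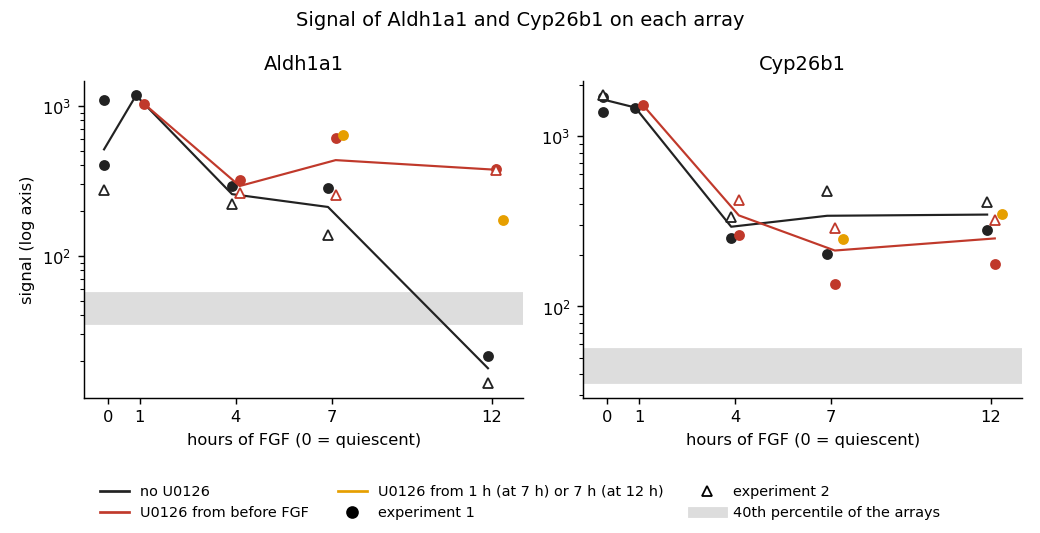
Signal (log axis) of Aldh1a1 and Cyp26b1 on each of the 19 arrays against hours of FGF, coloured by when U0126 was added, with filled circles for experiment 1, open triangles for experiment 2, lines through the mean over experiments, and a grey band for the 40th percentiles of the arrays (35.3 to 56.5). Aldh1a1 at 12 h lies below the band with FGF alone and at 172 to 377 with U0126, while Cyp26b1 is at 135 to 480 from 4 h on under all treatments.

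The group means most like Aldh1a1 over the 11 groups, among 12435 genes whose highest group mean passed the median signal of 73.9, were those of Kdm5a (Pearson r = 0.958), Nek9 (0.954), Itgbl1 (0.951) and Cpe (0.951). Their log2 differences at 12 h of FGF from quiescent cells were smaller, from -1.28 (Itgbl1) to -0.37 (Cpe), and with U0126 they were 0.41 to 0.87 above FGF alone. For Cyp26b1 the nearest were Smg6 (0.983), Dtx4 (0.983), Fbxo8 (0.968) and Bnc2 (0.966). Dtx4 differed from quiescent cells by -1.71 at 4 h and -1.81 at 12 h, and by 0.02 and 0.11 between U0126 and no U0126 at these times. These genes were picked for their likeness, which is a description over 11 means that share arrays.

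Of the other 7 members, Rarg was well above the low end on every array. This receptor had 2 probe sets: 1419415_a_at ran from 849 (FGF 7 h replicate 1) to 1868 (U0126 from 7 h), with a median of 1370, and 1419416_a_at from 463 to 844, with a median of 663. Quiescent cells read 1108, 1470 and 1722 on the first, FGF alone 1250 and 1163 at 4 h, 849 and 1521 at 7 h, and 1148 and 1301 at 12 h. With U0126 from the start the same set read 1370 and 1531, 1017 and 1625, and 1410 and 1657 at these times. The groups overlapped widely at 4, 7 and 12 h against quiescent cells. Both arrays with U0126 lay above both without it at 4 h and at 12 h, but neither difference passed (limma adjusted p = 0.681 and 0.529). The share of all genes separated in this way was not computed. Rara (1450180_a_at) ran from 49.3 to 172 on 18 arrays, all above their 40th percentile. On FGF 7 h replicate 2 alone it read 10.9, against 113 in replicate 1.

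The remaining 5 genes read low. Aldh1a3, which also makes retinoic acid, had 3 probe sets: 1417642_at reached 5.1 to 65.9 and passed its array's 40th percentile on 6 of 19 arrays, and the other 2 on none, with highest signals of 33.2 and 35.4. Crabp1 lay between 2.4 and 17.2 and never passed. Rarb lay between 2 and 46.5 and passed on 1 array (FGF 12 h replicate 1). Crabp2 lay between 2.7 and 99.2 and passed on 3 arrays, highest after 1 h of FGF. Stra6, the retinol uptake receptor, lay between 1.9 and 77.9 and passed on 4, highest in FGF 12 h replicate 2. Signals this low carry little above background on these arrays, and presence calls were not used here.

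**Figure D2:**
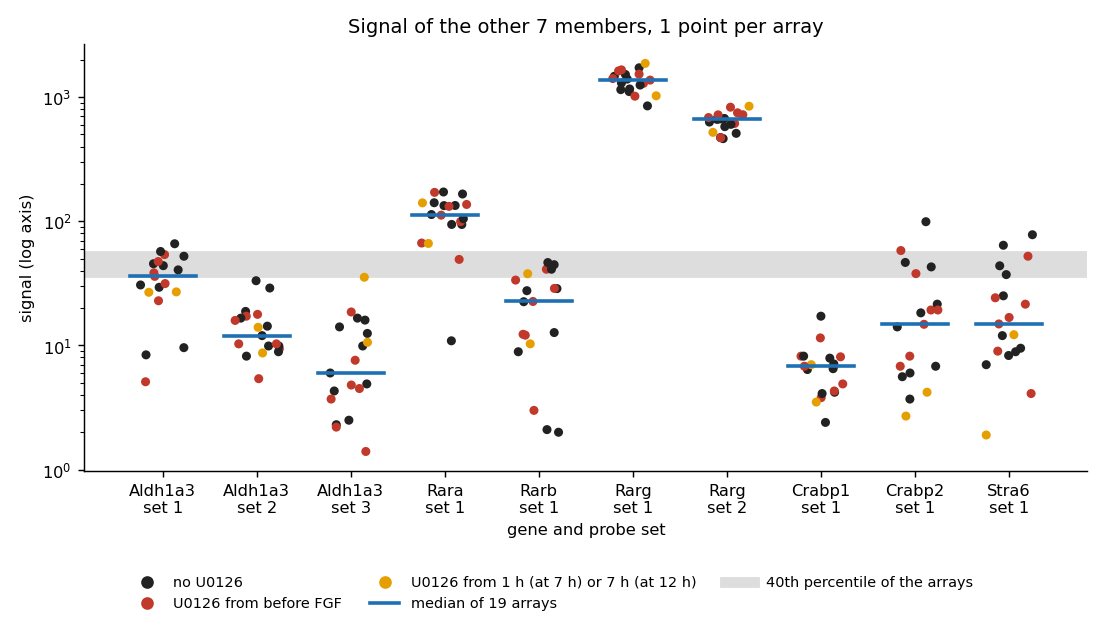
Signal (log axis) of the 10 probe sets of the other 7 members, 1 point per array and coloured by U0126 treatment, with a blue line at the median of 19 arrays and a grey band for the 40th percentiles of the arrays. Both Rarg sets lie far above the band and Rara mostly above it with 1 array at 10.9, while the sets of Aldh1a3, Rarb, Crabp1, Crabp2 and Stra6 lie mostly within or below it.

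Of the 12 probe sets 8 passed the filter on low values (above the 40th percentile on at least 2 arrays), and Crabp1 and Rarb did not pass with any. This left 5 members to test beside Aldh1a1 and Cyp26b1: Rarg, Rara, Aldh1a3, Crabp2 and Stra6. In limma's fit over all 14996 genes, 0 of 5 passed an adjusted p of 0.05 for FGF against quiescent cells at 4, 7 or 12 h, where 8.9%, 12.6% and 20.3% of all genes tested passed. For U0126 against no U0126 at these times 0 of 5 passed, against 5.93%, 6.07% and 12% of genes, and for FGF with U0126 against quiescent cells 0 of 5, against 7.38%, 9.07% and 5.42%. At 1 h, with 1 array a treatment, 0 of 5 passed for FGF against quiescent cells (0.48% of genes), for U0126 (0.18%) and for FGF with U0126 against quiescent cells (0.113%). For FGF at 7 h against 4 h and at 12 h against 7 h it was 0 of 5, against 0.12% and 1.83% of genes. For U0126 added at 1 h it was 0 of 5 at 7 h against no U0126 (3.59%) and against U0126 from the start (0%), and for U0126 added at 7 h 0 of 5 at 12 h against no U0126 (5.05%), U0126 from the start (0.674%) and FGF at 7 h (5.8%). Over all 19 comparisons, 0 of 95 values passed and 3 had an unadjusted p under 0.05.

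The Rarg intervals were the narrowest. With FGF alone Rarg differed from quiescent cells by -0.30 ± 0.25 at 4 h, -0.38 ± 0.25 at 7 h and -0.28 ± 0.25 at 12 h on the log2 scale. The 12 h value has a 95% interval from -0.82 to 0.27. Between U0126 and no U0126 Rarg differed by 0.26 at 4 h, 0.18 at 7 h and 0.32 at 12 h, the last with an interval from -0.22 to 0.86. U0126 added at 7 h gave 1868 at 12 h, 0.71 ± 0.31 above FGF at 7 h (limma adjusted p = 0.219, where 5.8% of genes passed) and 0.61 ± 0.31 above FGF alone at 12 h (adjusted p = 0.331, 5.05% of genes). With the experiment number as a block these 2 became 0.88 (adjusted p = 0.0104) and 0.78 (0.0233), and without FGF 7 h replicate 2 the first was 1.13 (0.0483). Each rests on 1 array with late U0126.

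Rara at 7 h of FGF differed from quiescent cells by -1.53 ± 0.60 (interval -2.80 to -0.25, limma adjusted p = 0.12). Without FGF 7 h replicate 1, which leaves the array at 10.9, this was -2.71 (adjusted p = 0.00554), and the difference between U0126 and no U0126 at 7 h was 1.98 (0.0402). Without FGF 7 h replicate 1, Rara also passed for 12 h against 7 h of FGF (2.43, adjusted p = 0.0399) and for late U0126 at 12 h against FGF at 7 h (2.65, adjusted p = 0.0218). At 4 h and 12 h Rara differed from quiescent cells by -0.35 ± 0.60 and -0.28 ± 0.60. Crabp2 after 1 h was -2.47 ± 0.88 with U0126 against without (adjusted p = 0.498, where 0.18% of genes passed), from signals of 6.8 and 99.2 on 1 array each. For Aldh1a3 and Stra6 the intervals at 12 h of FGF ran from -0.53 to 2.15 and from -0.69 to 2.19, so changes of several-fold lie inside them. The U0126 effect of these 5 members did not pass a test of difference between 4, 7 and 12 h (limma F test, adjusted p from 0.799 for Stra6 to 0.998 for Rarg), which 1.03% of genes passed.

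**Figure D3:**
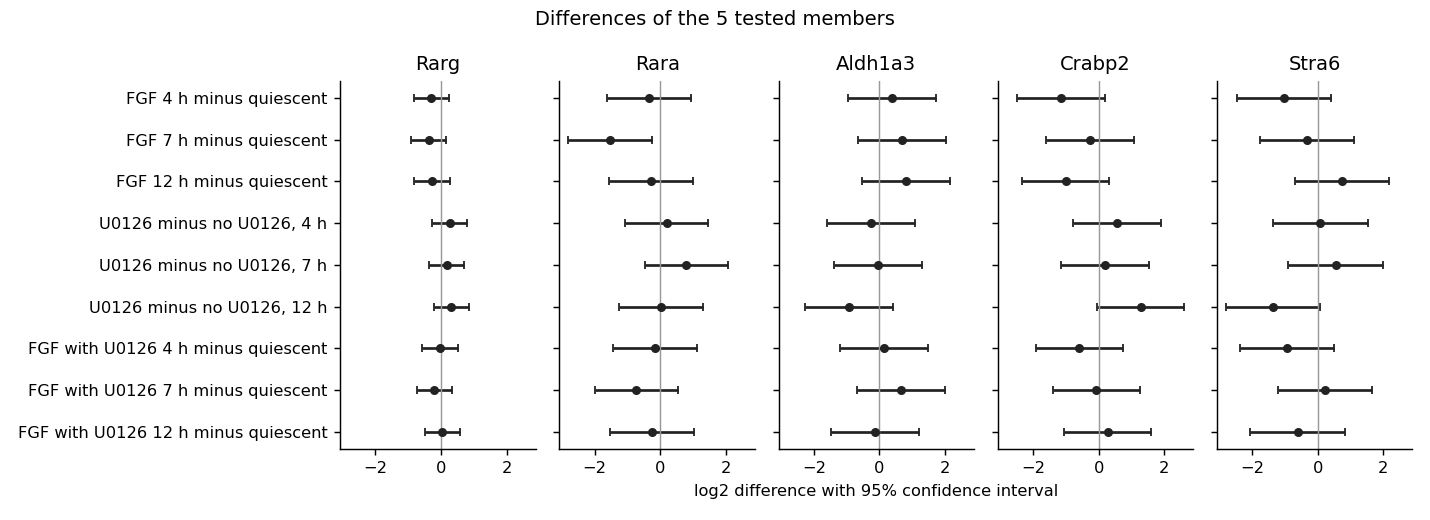
Log2 differences (points) with 95% confidence intervals (bars) of the 5 tested members in the 9 comparisons with 2 samples a group. Every bar crosses 0 except Rara for FGF 7 h minus quiescent, whose interval is -2.80 to -0.25 and whose adjusted p is 0.12.

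The rest of the pathway was read in 7 lists of 83 genes, of which 60 were tested. With FGF alone 6, 9 and 18 of the 60 passed against quiescent cells at 4, 7 and 12 h, or 10%, 15% and 30% beside 8.9%, 12.6% and 20.3% of all genes, and 0, 0 and 2 of these calls were rises and 6, 9 and 16 falls. Over all genes 3.92%, 5.45% and 8.55% rose and 4.98%, 7.2% and 11.8% fell. The median log2 difference of the 60 was -0.21, -0.17 and -0.33, beside -0.09, -0.05 and -0.01 over all genes. Between U0126 and no U0126, 5, 5 and 11 passed (8.33%, 8.33% and 18.3% beside 5.93%, 6.07% and 12%), of which 4, 4 and 9 were higher with the inhibitor (3.2%, 3.03% and 6.26% of all genes were), with medians of 0.10, 0.02 and 0.08 beside 0.04, -0.04 and 0.05. For FGF with U0126 against quiescent cells 6, 8 and 6 passed (10%, 13.3% and 10% beside 7.38%, 9.07% and 5.42%), all but 1 of them lower (4.07%, 5.33% and 2.99% of all genes were). Blocking on the experiment number gave FGF counts of 16, 17 and 25 (26.7%, 28.3% and 41.7%, beside 17.7%, 21.6% and 30% of all genes) and the U0126 counts 12, 10 and 18 (20%, 16.7% and 30%, beside 13%, 12.5% and 20.6%), and those of FGF with U0126 15, 19 and 17 (25%, 31.7% and 28.3%, beside 15%, 18.5% and 14.4%). Counts moved with 1 library: without quiescent replicate 2 FGF gave 3 at 4 h and 12 at 12 h and FGF with U0126 3 at 12 h, without FGF 4 h replicate 2 U0126 gave 1 at 4 h, and without the U0126 replicate 1 of that time FGF with U0126 gave 3 at 4 h and 3 at 7 h.

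**Figure D4:**
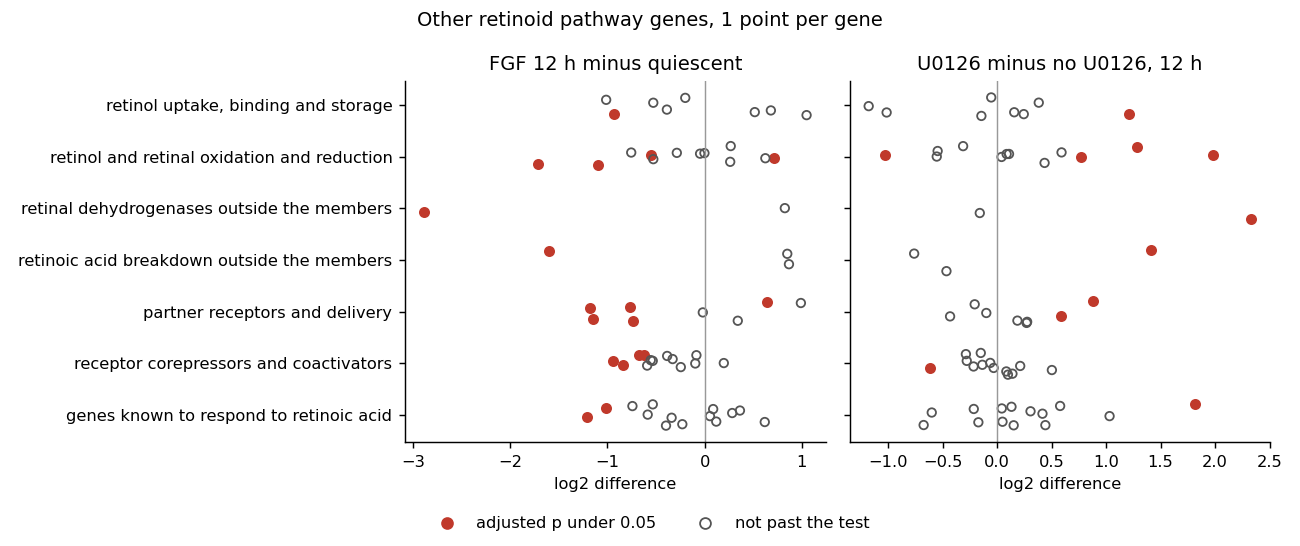
Log2 differences of the 60 tested pathway genes, 1 point per gene in rows by list, for FGF at 12 h against quiescent cells (left) and U0126 against no U0126 at 12 h (right), with genes past an adjusted p of 0.05 filled. On the left 16 filled points lie below 0 and 2 above, and on the right 9 lie above 0 and 2 below.

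Of 12 tested enzymes that interconvert retinol and retinal, 0, 0 and 1 rose and 0, 2 and 3 fell with FGF at 4, 7 and 12 h. Over all genes 3.92%, 5.45% and 8.55% rose and 4.98%, 7.2% and 11.8% fell. With U0126 2, 2 and 3 of the 12 were higher and 1 was lower at each time. Of all genes 3.2%, 3.03% and 6.26% were higher and 2.73%, 3.04% and 5.79% lower. Rdh10 was the 1 lower with U0126, and Dhrs3 was among those higher at 7 and 12 h. Rdh10, the main retinol dehydrogenase of the embryo, read 2296, 2086 and 1659 in quiescent cells and 1450 to 2250 with FGF alone at 4 to 12 h. With U0126 from the start it read 1078 and 1151 at 4 h, 694 and 772 at 7 h, and 789 and 727 at 12 h, below every array without the inhibitor. Its differences between U0126 and no U0126 were -0.94 ± 0.17, -1.17 ± 0.17 and -1.03 ± 0.17 (limma adjusted p = 0.0028, 0.00044 and 0.00065). With FGF alone it differed from quiescent cells by 0.17, -0.20 and -0.29 (adjusted p = 0.64, 0.54 and 0.27). Late U0126 gave 664 at 7 h and 791 at 12 h, the latter -0.97 ± 0.20 from FGF alone (adjusted p = 0.0118, or 0.0634 without FGF 12 h replicate 2).

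Dhrs3, which returns retinal to retinol, read 365, 381 and 407 in quiescent cells. With FGF alone it read 242 and 242 at 4 h, 210 and 242 at 7 h and 167 and 182 at 12 h. With U0126 from the start it was 460 and 343, 381 and 500, and 442 and 446, above both arrays with FGF alone at each time. The fall passed at 7 h (-0.75 ± 0.21, adjusted p = 0.026) and 12 h (-1.10 ± 0.21, adjusted p = 0.0014), and at 4 h it was -0.66 ± 0.21 (adjusted p = 0.062, or 0.0227 with the experiment block). The U0126 difference at 4 h was 0.68 ± 0.21 (adjusted p = 0.068, or 0.0224 with the block), and it passed at 7 h (0.91 ± 0.21, adjusted p = 0.014) and 12 h (1.28 ± 0.21, adjusted p = 0.00064). The 7 h calls were lost without FGF 7 h replicate 1 (adjusted p = 0.149 for the fall and 0.0947 for U0126), the first also without quiescent replicate 2 (0.164) and the second without the U0126 replicate 2 at 7 h (0.161). U0126 added at 7 h gave 480 at 12 h, 1.05 ± 0.25 above FGF alone at 7 h (adjusted p = 0.0246, or 0.0932 without FGF 7 h replicate 1). For Aldh1a1 the same array read 172, within the 138 to 284 of FGF alone at 7 h, where 284 was the array of the same experiment.

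The other calls of this list were in Rdh9, Adh7 and Rdh11. Rdh9 fell at 12 h by 1.71 ± 0.39 (adjusted p = 0.0053) and was 1.98 ± 0.39 higher with U0126 (adjusted p = 0.0031), from low signals of 35.1 and 20.5 with FGF and 105 and 206 with the inhibitor. Its fall was lost without FGF 12 h replicate 2 (0.0558) or quiescent replicate 2 (0.0613), and the U0126 call without the U0126 replicate 2 (0.0593). Adh7, a retinol-oxidising alcohol dehydrogenase, fell by 0.65 at 7 h and 0.55 at 12 h (± 0.16, adjusted p = 0.015 and 0.023) and was higher with U0126 by 0.65, 0.83 and 0.77 at the 3 times (adjusted p = 0.025, 0.005 and 0.0048). Each of these 5 Adh7 calls was lost without 1 array or another, with adjusted p up to 0.218 (U0126 at 4 h, without the U0126 replicate 1). Rdh11 was 0.71 ± 0.18 higher at 12 h of FGF (adjusted p = 0.012), a call lost without FGF 12 h replicate 1 (0.141) or quiescent replicate 2 (0.0932).

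**Figure D5:**
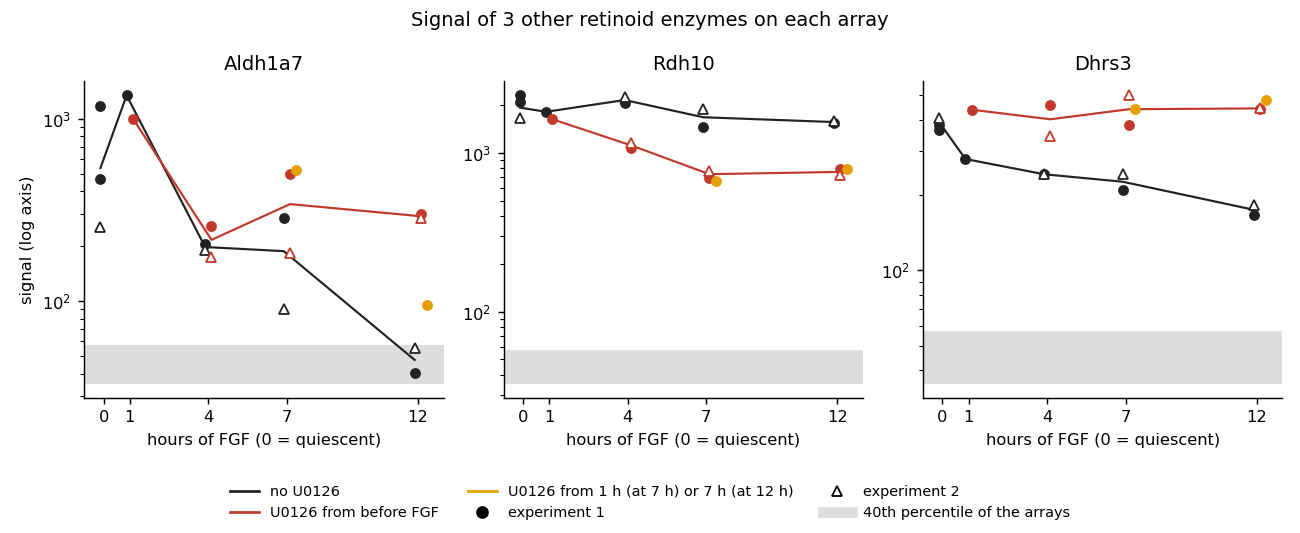
Signal (log axis) of Aldh1a7, Rdh10 and Dhrs3 on each array against hours of FGF, with colours, symbols, lines and band as in the plot of Aldh1a1 and Cyp26b1. Aldh1a7 falls to 40.1 and 54.9 at 12 h with FGF alone, Rdh10 lies at 664 to 1151 with U0126 from 4 h on, and Dhrs3 from 4 h on lies at 167 to 242 with FGF alone and 343 to 500 with U0126.

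Aldh1a7, the neighbour of Aldh1a1 on chromosome 19 that starts 49490 bases after its end, was read on a probe set of its own. Quiescent cells read 1172 and 465 in experiment 1 and 253 in experiment 2, against 1096, 400 and 275 for Aldh1a1, and 1 h of FGF gave 1341. With FGF alone it was 205 and 190 at 4 h and 285 and 90.5 at 7 h, and with U0126 from the start 258 and 175 at 4 h and 497 and 182 at 7 h. At 12 h it was 40.1 and 54.9 with FGF alone, 299 and 284 with U0126 from the start, and 94.6 with U0126 from 7 h. Within the 12 h pair with FGF alone the arrays stood in the opposite order to Aldh1a1, and in the other pairs in the same order. Both Aldh1a1 signals of that 12 h pair were below the 40th percentile of their arrays, so their order cannot be read. Aldh1a7 differed from quiescent cells by -1.35 ± 0.52 at 7 h (limma adjusted p = 0.12, or 0.0131 with the block), fell by 2.89 ± 0.52 at 12 h (adjusted p = 0.0011) and was 2.33 ± 0.52 higher with U0126 at 12 h (adjusted p = 0.0082). Its 12 h signals with FGF alone lay within the range of the arrays' 40th percentiles (35.3 to 56.5). The sizes of these 12 h differences thus depend on the offset of 13.6. The U0126 call was lost without FGF 12 h replicate 1 (0.0709), or without U0126 replicate 1 (0.0523) or replicate 2 (0.0506) at 12 h. The 2 genes are close copies, so the probe sets may share transcripts and the Aldh1a7 values are uncertain as a separate measurement. Aldh1a7 was counted in the pathway lists, but whether its enzyme acts on retinal was not examined here. In a separate list of other aldehyde dehydrogenases, 0, 2 and 1 of 14 tested fell with FGF at 4, 7 and 12 h and none rose. This is near the share of all genes that fell (4.98%, 7.2% and 11.8%). In that list Aldh1l2 was 0.97, 1.18 and 1.38 higher with U0126 (adjusted p = 0.034, 0.01 and 0.0019), the 4 h and 7 h calls being lost without FGF replicate 1 of that time (0.285 and 0.114), among other arrays.

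In the list made for retinoic acid breakdown 1 of 3 tested genes passed with FGF at 4, 7 and 12 h, where 8.9%, 12.6% and 20.3% of all genes did. That gene was Cyp1b1, a P450 that acts on retinoids, and whether it breaks down retinoic acid was not examined here. Cyp1b1 fell at every time from 4 h: it read 3059, 3475 and 3238 in quiescent cells and 893 to 1350 with FGF alone at 4 to 12 h. The differences were -1.68, -1.36 and -1.61 (± 0.19, adjusted p = 8.1e-05, 0.00029 and 3.1e-05). With U0126 it read 2581 and 3124 at 12 h, 1.41 ± 0.19 above FGF alone (adjusted p = 0.00012), but at 4 and 7 h the U0126 difference was 0.55 and 0.41 (adjusted p = 0.1 and 0.27). With the block the 4 h difference passed (adjusted p = 0.0337). At 12 h the Cyp1b1 signal with the inhibitor was thus close to that of quiescent cells (-0.19 ± 0.19), as it was for Aldh1a1 and not for Cyp26b1 (-2.70 ± 0.41). At 4 and 7 h Cyp1b1 with FGF and U0126 was below quiescent cells and passed the test, so the likeness to Aldh1a1 is one of 12 h only. In the uptake and storage list 1 of 8 passed with FGF at each of these times, near those shares of all genes. The same gene passed with U0126 at 4, 7 and 12 h, where 5.93%, 6.07% and 12% of all genes did. It was Lpl, the lipase that also frees retinyl esters from lipoproteins, lower with FGF and higher with U0126 from 4 h on. Lpl fell by 0.91 at 7 h and 0.93 at 12 h (± 0.16, adjusted p = 0.0021 and 0.00095) and was 1.15 and 1.21 higher with U0126 (adjusted p = 0.00045 and 0.00016).

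Of the 8 tested partner receptors and carriers, 1, 1 and 5 passed with FGF at 4, 7 and 12 h, where 8.9%, 12.6% and 20.3% of all genes did, and 1 of the 5 was a rise. Rxra, the partner of the retinoic acid receptors, read 582, 617 and 592 in quiescent cells and 320 to 431 with FGF alone from 4 to 12 h. Its differences with FGF were -0.65, -0.52 and -0.76 (± 0.19, adjusted p = 0.041, 0.086 and 0.0087, the 7 h value passing at 0.039 with the block) and with FGF and U0126 -0.80, -0.94 and -0.97 (adjusted p = 0.016, 0.0053 and 0.0056). Another Rxra probe set, the one of highest variance, gave 0.16 at 4 h and 0.68 at 12 h of FGF, and the 12 h call was lost without FGF 12 h replicate 2 (0.0779) or quiescent replicate 2 (0.0535), and the 4 h call without any of 4 arrays (0.053 to 0.264). The calls with U0126 were lost without 1 or more arrays at each time as well (0.0541 to 0.102). Rxrb was lower by 0.73 at 12 h (adjusted p = 0.0052, or 0.0954 without quiescent replicate 2). Thra, the thyroid hormone receptor, fell by 1.18 at 7 h and 1.15 at 12 h (± 0.20, adjusted p = 0.0012 and 0.00072), and Vdr, the vitamin D receptor, by 1.18 ± 0.18 at 12 h (adjusted p = 0.00033). The block added calls for Rxrb at 7 h (0.0161), Thra at 4 h (0.011) and Vdr at 7 h (0.00611). Fabp5, which carries retinoic acid to Ppard, was the 1 that rose, by 0.65 ± 0.16 at 12 h (adjusted p = 0.0084), and it was named after its values were seen. At 12 h Thra and Vdr were 0.88 and 0.59 higher with U0126 (adjusted p = 0.0079 and 0.049), calls lost without FGF 12 h replicate 1 (0.0612 and 0.17), among other arrays.

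Of 13 tested corepressors and coactivators 3, 3 and 4 fell with FGF at 4, 7 and 12 h and none rose, where 4.98%, 7.2% and 11.8% of all genes fell. Kat2b, an acetyltransferase that works with these receptors, read 3819 to 3999 in quiescent cells and 1816 to 2094 with FGF alone, and fell by 1.01, 1.11 and 0.94 (± 0.12, adjusted p = 0.00016, 6e-05 and 7e-05). With U0126 and FGF it was lower than in quiescent cells by 0.95, 0.95 and 0.84. Ncoa2 behaved likewise, with falls of 0.93, 0.58 and 0.67 (± 0.13, adjusted p = 0.00061, 0.01 and 0.0023), the 7 h call being lost without FGF 7 h replicate 2 (0.0812) or quiescent replicate 2 (0.0775). These 2 genes also depend on the probe set: the set of highest variance gave 0.07 for Kat2b at 7 and 12 h and -0.21 for Ncoa2 at 7 h, none of them past the test. Ncoa1 passed as lower with FGF at 4, 7 and 12 h and as higher with U0126 at 4 h. Sin3a passed as lower with U0126 at 12 h. Between U0126 and no U0126, 1, 0 and 0 of the 13 were higher and 0, 0 and 1 lower. Of all genes 3.2%, 3.03% and 6.26% were higher and 2.73%, 3.04% and 5.79% lower. Of 14 tested genes known to respond to retinoic acid 0, 1 and 2 fell with FGF and none rose, which is near the 4.98%, 7.2% and 11.8% of all genes that fell. Tgm2, a classic target, read 1014, 1442 and 1440 in quiescent cells, 458 and 688 with FGF at 12 h, and 2004 and 2007 with FGF and U0126 at 12 h. It fell by 1.17 ± 0.23 at 7 h (adjusted p = 0.0041, or 0.0528 without quiescent replicate 2) and 1.21 ± 0.23 at 12 h (adjusted p = 0.0018), and was 1.81 ± 0.23 higher with U0126 at 12 h (adjusted p = 0.0001). With the block its differences at 4 h passed too, -0.63 with FGF (adjusted p = 0.0245) and 0.76 with U0126 (0.00945). Meis1 fell by 1.02 ± 0.20 at 12 h (adjusted p = 0.0022), where its set of highest variance gave 0.92.

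Some markers of cell types passed the test in these comparisons. Of 7 tested epithelial markers 1, 2 and 1 were lower with FGF at 4, 7 and 12 h, where 4.98%, 7.2% and 11.8% of all genes were. With U0126 1 was higher at each time, where 3.2%, 3.03% and 6.26% of all genes were. That 1 was Krt14, a keratin of basal epithelium, which fell by 1.38, 1.85 and 1.52 with FGF (± 0.17) and was 1.00, 1.35 and 1.61 higher with U0126, and Cdh1 was the other call at 7 h. The summed signal of the 8 epithelial markers was 2471 to 3725 in quiescent cells, 1081 to 1576 with FGF alone at 4 to 12 h, and 2258 to 3665 with FGF and U0126 from the start. Such a sum adds signals of different probe sets, so the highest weigh most and it does not measure a share of cells. Its direction is that of Dhrs3, Lpl, Tgm2 and, at 12 h, Aldh1a1. Of 5 tested macrophage markers only Cd14 passed with FGF, higher at each of the 3 times, where 3.92%, 5.45% and 8.55% of all genes were. With U0126 at 4, 7 or 12 h 0 of 5 passed in limma's fit (1, 0 and 1 had an unadjusted p under 0.05). The summed signal of the 8 macrophage markers was 1155 to 1386 in quiescent cells and 1587 to 1738 with FGF alone at 4 to 12 h. Of 12 fibroblast markers 1, 3 and 5 were lower with FGF and none higher, at 12 h Col1a1, Dcn, Pdgfra, Pdgfrb and Thy1, where 11.8% of all genes were lower. With U0126 Pdgfra was lower at 4, 7 and 12 h, Pdgfrb lower at 7 h and Thy1 higher at 12 h. The summed signal of the fibroblast markers was 214482 to 233971 in quiescent cells and 164302 to 202084 with FGF alone at 12 h. The part of these markers in the results above was not tested.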

How the data were processed

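RNA of 19 NIH3T3 samples had been hybridised to Affymetrix mouse arrays, 1 array per sample. The deposited values are MAS5 signal intensity on a linear scale, per the submitters' processing notes. Trimmed of 2% at either end, the mean signal came to 497 to 498 on every array, so the authors had scaled the arrays. The MAS5 version and presence calls are not given in the sources used here. After 64 control probe sets were dropped, the filter on low values (signal above the array's 40th percentile on 2 or more arrays) retained 34537 probe sets, and the set of highest mean stood for a gene. Values were log2(signal + 13.6), the 20th percentile of all values. Quiescent arrays 1a and 1b, of 1 experiment, were averaged. limma 3.58.1 (R 4.3.3) was fitted over all 11 groups with a variance trend (7 residual degrees of freedom), two-sided, with Benjamini-Hochberg adjustment over 14996 genes and a limit of 0.05. Groups of 1 array take their spread from the others. On data simulated for FGF 12 h against quiescent cells over 14996 genes, 75% of 2-fold and 100% of 4-fold changes were recovered. Those changes were placed only in genes whose mean exceeded that of the median gene, with independent noise and no experiment effect. The shares thus do not apply to low genes such as Aldh1a3, Crabp2 and Stra6. Of the probe sets, 34945 map to 1 gene, 932 to several and 9160 to none in an annotation that can be old. Precision is limited by the number of arrays.

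The members and lists were chosen with earlier results of these data known. Aldh1a1 and Cyp26b1 have no test in any comparison, also not with late U0126, since the arrays compared there had chosen them. Named beside the members were list genes past the test, at most the 3 largest per list and comparison, the 4 genes most like Aldh1a1 and Cyp26b1, and the checks of treatment. Deviations of same-numbered samples from their group means correlated between groups at 0.127 to 0.305 (21 pairs, median 0.211), so the experiment number, from the titles, pairs the samples. It was a block in 1 alternative. Other alternatives changed the scaling, offset, filter, variance trend, probe set, handling of quiescent arrays and groups fitted, or left out each array.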

Additional observations from a re-analysis of the deposited data

Results flagged for a closer look

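The U0126 difference of Cyp26b1 had opposite signs at different times in both experiments. At 4 h it was 0.06 in experiment 1 and 0.32 in experiment 2, at 7 h -0.54 and -0.69, and at 12 h -0.63 and -0.33 on the log2 scale. The mean difference was thus 0.81 lower at 7 h than at 4 h (-0.8074) and 0.67 lower at 12 h than at 4 h (-0.6679). The difference between the times was not tested, because Cyp26b1 was chosen by these values, and it is small beside the 4.75-fold or larger fall in mean linear signal with and without the inhibitor. It also depends on single arrays: without U0126 replicate 2 at 4 h the 4 h difference was -0.14, and without FGF 7 h replicate 2 the 7 h difference was -0.03.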

How the results depend on the processing

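Each of 27 counts (genes, tested members and pathway list genes past the test in 9 comparisons) was recomputed under the alternatives, and 94 of 450 values moved by over 1.5 times. Over the 5 tested members, 7 of 1408 values passed the test under an alternative, all of Rara or Rarg and given above, and 69 changed sign; the cause was not tested. The reported counts of all genes at 4, 7 and 12 h were 1335, 1896 and 3049 for FGF against quiescent cells, 889, 911 and 1806 for U0126 against none, and 1107, 1360 and 813 for FGF with U0126 against quiescent cells, and the order is kept below. With the replicate block they were 2655, 3241, 1944, 1880, 3094, 2252, 2781 and 2156, FGF at 12 h staying within 1.5 times, and the list counts, again without FGF at 12 h, were 16, 17, 12, 10, 18, 15, 19 and 17. The replicate block ended no call of a named gene. Without the variance trend, genes were 852 (FGF 4 h), 578 and 524 (U0126 4 and 7 h), and 580, 777 and 412 (FGF with U0126), and list genes 2 (U0126 4 h) and 5 (FGF with U0126 7 h). With the probe set of highest variance, genes were 807, 1139, 2012, 556, 601, 1175, 667, 797 and 517, and list genes 2 and 10 (FGF 4 and 12 h), 7 (U0126 12 h), and 3, 2 and 3 (FGF with U0126). This setting also reversed Rxra (FGF 4 h 0.16 and 12 h 0.68, FGF with U0126 0.35, 0.12 and 0.50), Kat2b (FGF 7 and 12 h 0.073) and Meis1 (FGF 12 h 0.92, FGF with U0126 4 h 1.04). With all probe sets tested, 4678 passed for FGF 12 h, and list genes for FGF 4 h were 3, as without a filter and with scaling to the 75th percentile. With 3 separate quiescent arrays 14 list genes passed for FGF 7 h. With only the compared groups, genes were 1096 (FGF 7 h), 538 and 569 (U0126 4 and 7 h) and 635 (FGF with U0126 4 h), and list genes 5 (FGF 7 h).

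Leaving out each array gave 548 to 1386, 872 to 2070 and 1734 to 3085 genes for FGF, 438 to 543, 498 to 601 and 986 to 1165 for U0126, and 427 to 1103, 430 to 1688 and 317 to 913 for FGF with U0126. List genes were 3 to 7, 6 to 11 and 12 to 20, then 1 to 3, 3 to 4 and 7 to 8, then 3 to 7, 3 to 10 and 3 to 8. Tested members were 0 to 1 for FGF 7 h and U0126 7 h, the 1 being Rara without FGF 7 h replicate 1, and 0 in the other 7 of these 9 comparisons. For FGF 12 h against 7 h they were 0 to 1 (Rara), and for U0126 from 7 h against FGF 7 h 1 without either FGF 7 h array (Rara without replicate 1, Rarg without replicate 2). Scaling to the 75th percentile moved the share of higher calls for FGF with U0126 at 7 h from 41.2% to 52.3%, and quantile normalization that for FGF at 1 h from 77.8% to 67.5%. With signals at or below the 40th percentile on most arrays, differences of Crabp1, Rarb, Aldh1a3, Crabp2 and Stra6 could not be measured well.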
